A study of Mus musculus with 4 samples.

Results

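The transcriptional coactivators YAP and TAZ, the TEAD factors that carry them to DNA and the Vestigial-like proteins that compete for the same TEAD surface were followed through the stroma of the mouse small intestine, cell by cell. The 8 genes were Yap1, Wwtr1 (which encodes TAZ), Tead1, Tead2, Tead3, Tead4, Vgll3 and Vgll4, taken by symbol from 18619 genes of the expression matrix, whatever their values. The row named Taz is tafazzin, a mitochondrial enzyme gene, and was not used.

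YAP and TAZ have no DNA-binding domain of their own and act by binding a TEAD factor, which recognises the letters GGAATG in promoters and enhancers. The kinases LATS1 and LATS2 phosphorylate both proteins, which holds them in the cytoplasm and marks them for degradation, so the pathway is controlled mainly at the protein level. VGLL4 binds TEAD factors and displaces YAP, whereas VGLL3 is a TEAD cofactor best known from mesenchymal and muscle cells. Amotl2, which encodes an angiomotin, is a widely used YAP/TAZ target and also restrains YAP, and Vegfc encodes the growth factor of lymphatic endothelium.

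The cells came from adult mice kept on a C57BL/6 background. In these mice tamoxifen-activated Cre under the Pdgfrb promoter (Pdgfrb-Cre-ERT2) acted on Lats1 fl/fl and Lats2 fl/fl alleles and switched on a tdTomato reporter. Reporter-positive cells were sorted and profiled with a droplet kit that counts transcripts at the 3-prime end. Of 4 samples in 3 groups, the 1 library collected 1 week after tamoxifen (LATS1/2 KO 1w) was analysed, and the WT and LATS1/2 KO 2w libraries were not analysed here. Every cell shared the deletion treatment and the Cre limits the model to cells that express Pdgfrb, so every contrast below sets some cells of 1 library against other cells of it. There was no replicate and no test, and brackets give exact 95% intervals that cover counting error only.

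In all, 46054627 transcripts, told apart by unique molecular identifiers (UMIs), were counted in 4108 cells; the median cell had 10726. Levels are UMIs per 1000000 UMIs (CPM) of a set of cells, and since each molecule is counted once at its 3-prime end they are not scaled to transcript length. Levels of different genes also reflect how well each 3-prime end is captured, so the text compares mainly 1 gene between cells. Free RNA was put at no more than 8.64% of a gene's mean level, judged from Y-linked UMIs in the 2004 cells with 5 or more UMIs of Xist. That takes free RNA to have the library's mean make-up, and a gene richer in it could exceed this bound. Among the 7 genes other than Tead4 the lowest level in any cluster was above the bound. Lats1 stood at 14.2 CPM and Lats2 at 53.5 CPM; reads at the 3-prime end can come from a transcript that lost an inner exon, so these levels do not check the deletion.

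The cells were separated into clusters 1 to 9, numbered by size. The 8 genes, Vegfc, Amotl2 and the other genes on a fixed list of YAP/TAZ targets were not used to build them. Genes outside that list that respond to YAP/TAZ could still be used. Clusters 2 and 3 (924 and 705 cells) carried all 3 villus fibroblast markers and were called vFB1-2-like, cluster 4 (690 cells) FB4-like from 5 of 5 markers such as Ackr4 and Cilp, cluster 6 (205 cells) FB5-like from 6 of 7, cluster 7 (76 cells) SMC-like from 5 of 5 smooth muscle markers, and cluster 9 (45 cells) vFB3-like from 5 of 5. Clusters 1 and 5 (1080 and 313 cells) had Adamdec1, a villus fibroblast gene, at 4522 and 4559 CPM but too few of the listed markers for a name; in cluster 5, 1 of 3 villus fibroblast markers was high and Fhl2, a vFB3 marker, stood among the leading genes. Cluster 8 (70 cells) was high in 7 of 7 mural markers yet had Ano1, a gene of interstitial cells of Cajal, among its leading genes and stayed unnamed, and in cluster 6 the pericyte genes Kcnj8 and Abcc9 stood among the leading genes. Clusters 1, 2, 3 and 5 (3022 cells) are called the villus clusters. They were set by exclusion, with fewer than 3 high markers on each of the vFB3, FB4, FB5, smooth muscle and mural lists. The villus fibroblast list did not decide it, since 2 of its 3 markers were high in cluster 1 and also in the FB4-like cluster. Endothelial, epithelial and mesothelial marker lists summed to at most 17.3 CPM in any cluster immune markers to at most 55.2 CPM and glial and neuronal markers to at most 60.5 CPM, in cluster 8.

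Upstream sequences are shown for Amotl2, for Vgll3 and Vgll4, which were higher beside it, and for Wwtr1, which was not, because all of them hold the TEAD hexamer. They are the 250 bases before the RefSeq start site (GRCm38.p6, 5′ to 3′ on the gene's strand), with GGAATG or its reverse complement CATTCC in capitals.
Vgll3: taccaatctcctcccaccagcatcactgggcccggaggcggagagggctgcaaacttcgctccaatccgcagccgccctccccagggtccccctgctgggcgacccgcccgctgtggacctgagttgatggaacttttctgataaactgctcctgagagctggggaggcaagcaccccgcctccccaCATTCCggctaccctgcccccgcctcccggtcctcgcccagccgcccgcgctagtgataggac
Vgll4: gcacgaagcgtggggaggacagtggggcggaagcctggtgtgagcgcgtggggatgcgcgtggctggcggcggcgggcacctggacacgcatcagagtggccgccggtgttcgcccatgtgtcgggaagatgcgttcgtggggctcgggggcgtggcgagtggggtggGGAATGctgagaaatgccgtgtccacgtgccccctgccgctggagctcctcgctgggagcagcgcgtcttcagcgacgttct
Amotl2: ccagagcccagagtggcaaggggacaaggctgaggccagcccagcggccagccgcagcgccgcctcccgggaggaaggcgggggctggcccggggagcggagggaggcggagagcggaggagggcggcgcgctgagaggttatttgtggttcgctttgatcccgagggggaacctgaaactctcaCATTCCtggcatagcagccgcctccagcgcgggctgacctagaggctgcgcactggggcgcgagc
Wwtr1: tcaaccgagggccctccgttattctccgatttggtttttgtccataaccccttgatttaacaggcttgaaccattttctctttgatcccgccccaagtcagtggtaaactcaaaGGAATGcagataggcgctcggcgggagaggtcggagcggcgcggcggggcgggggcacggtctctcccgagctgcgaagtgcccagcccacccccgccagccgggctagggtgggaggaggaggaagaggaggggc
The windows lie at chr16:65814939-65815188 (plus strand), chr6:114969204-114969453 (minus), chr9:102717554-102717803 (plus) and chr3:57575911-57576160 (minus), and the first base of the hexamer falls at position -63, -82, -65 and -136, counted back from the start site. Windows were read for 6 of the 8 genes, not for Tead1 and Tead4. The hexamer was present in 5 of these 6 genes (Yap1 at -141, Wwtr1, Tead3, Vgll3 and Vgll4, but not Tead2), against 14.4% of 27025 genes with a window of the same length. The AP-1 heptamer TGACTCA, on either strand, was in 0 of the 9 windows of these 6 genes and in 5.16% of genes. Yap1 and Wwtr1 hold the hexamer and had ratios of 0.97 and 0.69, and Vgll3, which holds it too, had 3.85 (cluster 1 over cluster 3, given in full later). Tead1 had no window and each window covers only 250 bases, so whether the hexamer goes with Amotl2 was not tested. A match describes the letters of the window and not a bound site.

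Yap1 (chr9:7931999-8004596, minus strand, mm10), the coactivator of the pair with the lower level, was counted 1954 times, at 42.4 CPM, with detection in 36.3% of cells. Its level was much the same everywhere. It ran from 37.4 CPM (31.7 to 43.8) in cluster 5 through 38.4 in the FB4-like cluster, 41.2 in the FB5-like, 42.9 in cluster 1, 44.4 in cluster 3, 44.9 in cluster 2, 46.5 in the SMC-like and 50.1 in cluster 8 to 55.0 CPM (37.6 to 77.7) in the vFB3-like cluster. The interval of every cluster overlapped that of its neighbours in this order, and those of the lowest and highest cluster overlapped as well.

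Wwtr1 (chr3:57455649-57575910, minus strand) was the most counted of the 8 genes, with 6037 UMIs, 131 CPM and detection in 72.2% of cells. It was high in most kinds of cell and low in clusters 1, 5, 8 and 9. The vFB1-2-like clusters 2 and 3 were at 155 CPM (147 to 163) and 157 CPM (149 to 167), the SMC-like and FB4-like clusters both at 147 CPM and the FB5-like at 128 CPM (114 to 143). Cluster 1 was at 108 CPM (103 to 114), cluster 8 at 93.3 CPM (70.1 to 122), cluster 5 at 77.0 CPM (68.8 to 86.0) and the vFB3-like cluster at 67.1 CPM (47.7 to 91.7). The intervals of clusters 1 and 6 met at 114 CPM without overlapping, and those of clusters 2, 3, 4 and 7 all overlapped. The Wwtr1 share of Wwtr1 plus Yap1 UMIs, which does not depend on the total of a cluster, was 79.3% (77.2 to 81.3) in the FB4-like cluster, 71.6% (69.5 to 73.7) in cluster 1, 67.3% (62.9 to 71.5) in cluster 5 and 54.9% (42.7 to 66.8) in the vFB3-like cluster.

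Tead1 (chr7:112679318-112906807, plus strand) supplied most TEAD transcripts, with 4953 UMIs and 107.5 CPM. It separated the clusters more than any other TEAD gene. The vFB3-like cluster was highest at 249 CPM (210 to 293), followed by the FB5-like at 165 CPM (149 to 182), cluster 1 at 149 CPM (143 to 156), cluster 8 at 142 CPM (113 to 176) and cluster 5 at 135 CPM (124 to 146). The SMC-like cluster at 94.3 CPM (73.7 to 119) and the FB4-like at 88.3 CPM (82.1 to 94.8) lay between these and the vFB1-2-like clusters 2 and 3, at 68.1 CPM (62.9 to 73.7) and 63.0 CPM (57.5 to 68.9). The vFB3-like cluster stood clear of every other one. The intervals of clusters 8, 1 and 6 overlapped with each other, as did 2 with 3 and 4 with 7. The vFB3-like level was 1.85 times (1.53 to 2.23) that of cluster 5 and the FB5-like level 1.56 times (1.41 to 1.73) that of the villus clusters together.

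Tead2 and Tead3 were minor TEAD genes with 24.8 and 25.0 CPM in the library. Tead2 (chr7:45215753-45233644, plus strand) ranged from 19.0 to 32.0 CPM in 8 clusters and was 10.4 CPM (6.80 to 15.2) in the FB5-like cluster, 0.43 times (0.28 to 0.64) the level of the villus clusters. Its highest level, 32.0 CPM (28.3 to 36.0), was in the FB4-like cluster and lay above those of clusters 1 and 6 beyond the intervals. Tead3 (chr17:28331671-28350817, minus strand) ranged from 20.3 CPM (16.2 to 25.2) in cluster 5 to 46.5 CPM (32.4 to 64.7) in the SMC-like cluster, 1.86 times (1.29 to 2.61) the villus clusters. The SMC-like value rests on 35 UMIs of 76 cells.

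Tead4 (chr6:128224288-128300823, minus strand) was close to absent, with 16 UMIs in 4108 cells. Of these, 5 lay in cluster 5, 3 each in clusters 1, 6 and 8, and 1 each in clusters 4 and 9. Clusters 2, 3 and 7 had 0 UMIs, and for cluster 2 the limit of 3 counts is 0.331 CPM. The highest level, 5.18 CPM (1.07 to 15.1) in cluster 8, rests on 3 UMIs, so no ratio is given for Tead4.

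The TEAD genes together were at 304 CPM (261 to 353) in the vFB3-like cluster, 206 CPM in the FB5-like, 199 CPM in cluster 1, 182 CPM in cluster 5 and 116 and 115 CPM in clusters 2 and 3. Tead1 made up 81.9% (75.4 to 87.3) of TEAD UMIs in the vFB3-like cluster, 80.0% (76.3 to 83.4) in the FB5-like, 75.1% (73.4 to 76.8) in cluster 1 and 54.8% (51.4 to 58.1) in cluster 3. The clusters thus differed both in how many TEAD transcripts they held and in how many of these were Tead1.

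Vgll3 (chr16:65815257-65866368, plus strand) had 2994 UMIs and 65.0 CPM, and with Tead1 it differed most between clusters. Cluster 1 was highest at 109.8 CPM (104 to 116). Cluster 5 followed at 77.8 CPM (69.5 to 86.8), with the FB5-like at 71.6 CPM and the FB4-like at 70.1 CPM inside its interval. Cluster 8 was at 58.7 CPM, the vFB3-like at 44.7 CPM (29.2 to 65.5) and the SMC-like at 38.5 CPM (25.8 to 55.3). The vFB1-2-like clusters 3 and 2 were lowest, at 28.5 CPM (24.8 to 32.6) and 26.5 CPM (23.2 to 30.03). The vFB3-like cluster had 0.58 times (0.37 to 0.86) the Vgll3 level of cluster 5, whereas its Tead1 level was higher.

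Vgll4 (chr6:114860628-114969994, minus strand) had 2549 UMIs and 55.3 CPM. The FB5-like cluster at 99.6 CPM (87.6 to 113), the vFB3-like at 92.9 CPM (69.8 to 121) and cluster 5 at 89.0 CPM (80.1 to 98.6) overlapped at the top. Cluster 1 stood below cluster 5 at 70.7 CPM (66.1 to 75.5). Clusters 2 and 3 were at 41.1 and 38.7 CPM and the FB4-like cluster was lowest at 32.6 CPM (28.9 to 36.6), 0.57 times (0.50 to 0.64) the villus clusters. The FB4-like cluster therefore carried the highest Vgll3 share of Vgll3 plus Vgll4 UMIs, 68.3% (65.1 to 71.3), against 60.8% (58.8 to 62.9) in cluster 1 and 32.5% (22.4 to 43.9) in the vFB3-like cluster.

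**Figure D1:**
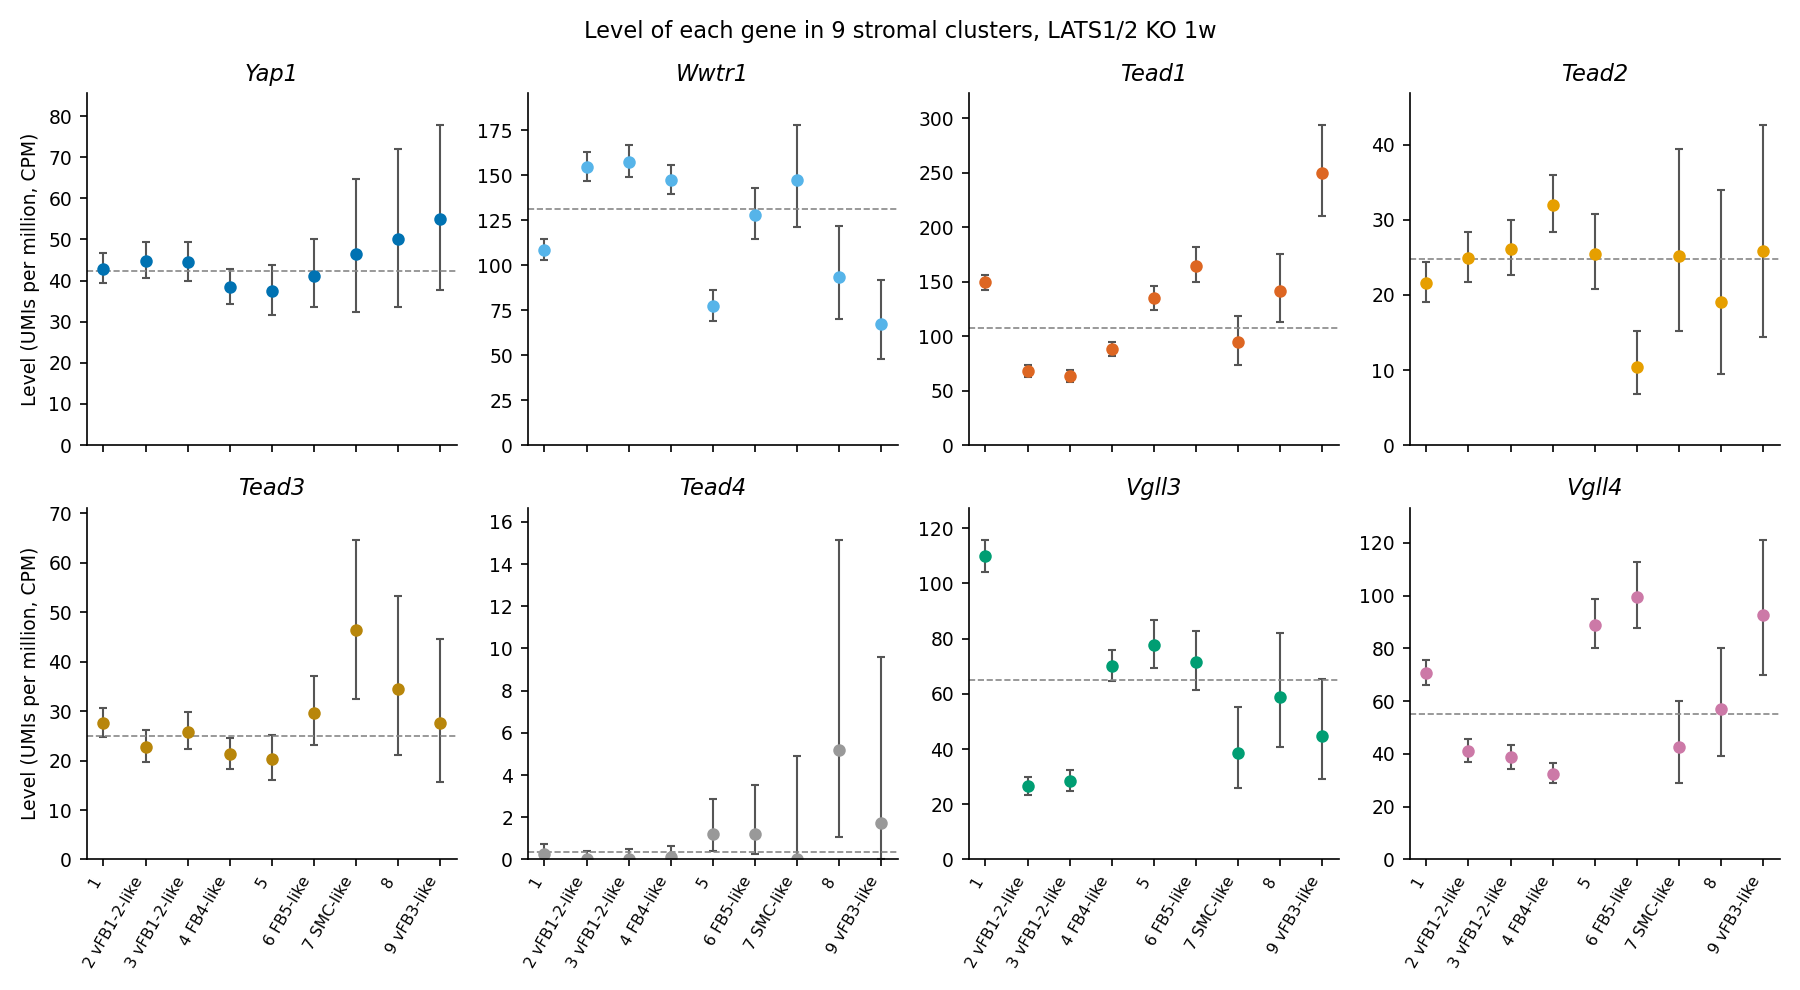
Level in CPM (y axis) of each gene in clusters 1 to 9 (x axis). Points are pooled UMIs of the cells of a cluster, bars are exact 95% counting intervals and the dashed line is the level in all cells; Yap1 stays between 37.4 and 55.0 CPM while Tead1 runs from 63.0 to 249 CPM and Vgll3 from 26.5 to 109.8 CPM.

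**Figure D2:**
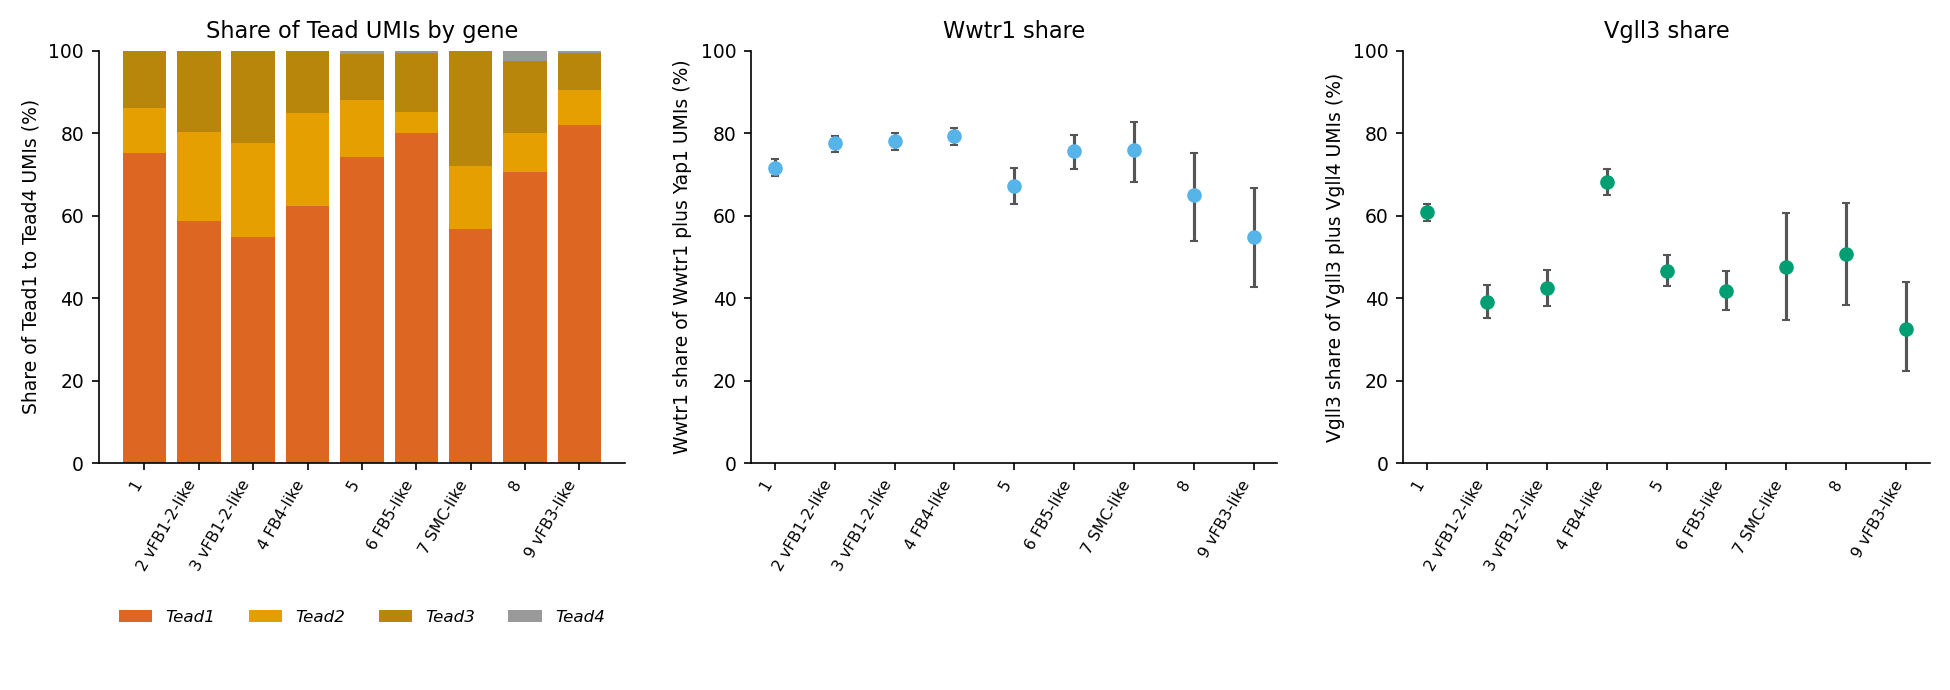
Make-up of each family by cluster (x axis). Stacked bars give the share in percent of each TEAD gene among Tead1 to Tead4 UMIs, and points with exact 95% intervals give the Wwtr1 share of Wwtr1 plus Yap1 and the Vgll3 share of Vgll3 plus Vgll4; Tead1 makes up 54.8% in cluster 3 and 81.9% in the vFB3-like cluster.

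Other kinds of cell were set against the villus clusters by calling a gene higher or lower past 1.5-fold, among genes with at least 100 UMIs in the cells compared. In the FB4-like cluster 0 of 7 members were higher and 1 lower (Vgll4), against 6.12% and 11.6% of 11232 genes. The FB5-like cluster had 2 of 7 higher (Tead1, Vgll4) and 1 lower (Tead2), against 12.5% and 17.6% of 11034 genes. In the vFB3-like cluster against cluster 5, 1 of 6 was higher (Tead1) and 1 lower (Vgll3), against 18.7% and 10.5% of 5583 genes. With so few members, counts of 1 or 2 do not stand apart from these backgrounds.

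Within the villus, the question was whether the genes differ between cells with much and with little Amotl2. Immediate early genes such as Fos divided the villus clusters as well, so the comparison was made at both levels: cluster 1 against cluster 3, where Fos was 1189 and 2575 CPM, and cluster 5 against cluster 2, where Fos was 63.3 and 259 CPM. Amotl2 chose the clusters, and its own levels of 260 and 74.0 CPM, and of 164 and 52.6 CPM, are a description. Fos was lower in the Amotl2-high cluster of both contrasts, and its part in the values that follow was not tested.

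Vgll3, Tead1 and Vgll4 were higher in both Amotl2-high clusters. Vgll3 was 110 against 28.5 CPM in clusters 1 and 3, a ratio of 3.85 (3.33 to 4.47), and 77.8 against 26.5 CPM in clusters 5 and 2, a ratio of 2.94 (2.48 to 3.49). Tead1 was 149 against 63.0 CPM, a ratio of 2.37 (2.14 to 2.62), and 135 against 68.1 CPM, a ratio of 1.98 (1.76 to 2.22). Vgll4, which displaces YAP from TEAD, was 70.7 against 38.7 CPM, a ratio of 1.82 (1.60 to 2.09), and 89.0 against 41.1 CPM, a ratio of 2.16 (1.87 to 2.51).

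Wwtr1 went the other way. Its level was 108 against 157 CPM in clusters 1 and 3, a ratio of 0.69 (0.64 to 0.74), and 77.0 against 155 CPM in clusters 5 and 2, a ratio of 0.50 (0.44 to 0.56). The ratios of Yap1 were 0.97 (0.84 to 1.11) and 0.83 (0.69 to 1.01), of Tead2 0.83 (0.685 to 0.999) and 1.02 (0.80 to 1.29), and of Tead3 1.06 (0.89 to 1.28) and 0.89 (0.68 to 1.15). The intervals of Yap1 and Tead3 held 1 in both contrasts, so no difference was detectable at this depth, and that of Tead2 ended just under 1 in the first contrast and held it in the second. Coactivator transcripts together were 0.75 times (0.70 to 0.80) and 0.57 times (0.52 to 0.64) as high in the Amotl2-high clusters, TEAD transcripts 1.73 times (1.60 to 1.87) and 1.57 times (1.43 to 1.72), and Vgll3 plus Vgll4 2.68 times (2.44 to 2.96) and 2.47 times (2.21 to 2.76).

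Against the background, 3 of 7 members were higher and 0 lower in cluster 1 over cluster 3, where 5.35% of 10047 genes were higher and 6.84% lower. In cluster 5 over cluster 2, 3 of 7 were higher and 1 lower (Wwtr1), where 6.05% of 9090 genes were higher and 14.1% lower. Of all genes, 0.52% had a ratio at least as high as Vgll3 in the first contrast and 0.87% in the second. The corresponding values were 1.5% and 2.37% for Tead1 and 2.95% and 1.86% for Vgll4. Wwtr1 was less exceptional, with 7.74% and 4.89% of genes at or below its ratio. Clusters drawn at a finer resolution kept the directions of Vgll3, Tead1, Vgll4 and Wwtr1, but in the contrast with little Fos they put Vgll3 at 5.94, Vgll4 at 1.41 and Wwtr1 at 0.79, the last 2 no longer past 1.5-fold, and clusters built with nothing regressed out put Vgll3 at 5.33. The median ratio of the 7 members was 1.06 in the first contrast and 1.02 in the second, beside 0.99 and 0.96 over all genes tested.

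The cells of the library carry a mark M or F, which follows Xist. Y-linked UMIs were found in 1545 of 1983 M cells and in 116 of 2125 F cells, so cells of both sexes, and thus of more than 1 mouse, were pooled. Both marks gave the same directions for Vgll3, Tead1, Vgll4 and Wwtr1 in both contrasts. For cluster 1 over cluster 3 the Vgll3 ratio was 4.14 in the M columns and 3.52 in the F columns, the Tead1 ratio 2.65 and 2.10, the Vgll4 ratio 1.95 and 1.72 and the Wwtr1 ratio 0.71 and 0.68. Clusters with much and with little Fos were set against each other too. In cluster 3 over cluster 2, 0 of 7 passed 1.5-fold (4.92% of 9740 genes were higher and 2.23% lower), and in cluster 1 over cluster 5 again 0 of 7 (12.8% of 9581 genes higher and 3.87% lower), with Wwtr1 at 1.41 (1.24 to 1.60), Vgll3 at 1.41 (1.25 to 1.60), Tead3 at 1.36 (1.06 to 1.75) and Vgll4 at 0.79 (0.70 to 0.90). Amotl2 itself was 1.59 times (1.46 to 1.73) as high in cluster 1 as in cluster 5, so the 2 clusters are not matched for it.

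FB4-like cells were compared by Amotl2 as well. Clustering all cells again at a finer resolution gave a pair of FB4-like clusters, of 173 cells with Amotl2 at 374 CPM and 518 cells with Amotl2 at 82.8 CPM. Fos was 1197 against 1983 CPM and 7 of 7 immediate early genes were lower in the Amotl2-high cluster, and their part in the values was not tested. Vgll3 was 185 against 27.7 CPM, a ratio of 6.69 (5.60 to 8.03), the widest gap of any member in any comparison made. Tead1 was 160 against 62.0 CPM, a ratio of 2.58 (2.23 to 2.98), and Vgll4 48.7 against 26.6 CPM, a ratio of 1.83 (1.43 to 2.34). Wwtr1 was 121 against 157 CPM, a ratio of 0.77 (0.68 to 0.89), and the intervals of Yap1, Tead2 and Tead3 reached 1. Here 3 of 7 members were higher and 0 lower, against 5.62% and 6.53% of 7655 genes, and 0.05% of genes had a ratio at least as high as Vgll3.

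Cells were next grouped singly, by the Amotl2 UMIs left after each cell had been thinned to 5000 UMIs, so that a deeper cell was not placed higher for its depth alone. In the villus clusters the groups of 0, 1, 2 and 3 or more Amotl2 UMIs held 1745, 718, 311 and 193 cells, with median depths from 10010 to 11945 UMIs. Vgll3 stood at 43.4, 77.7, 92.2 and 136 CPM and Tead1 at 85.8, 111, 151 and 166 CPM, both higher in each group than in the one before. Vgll4 stood at 49.3, 62.2, 76.4 and 75.1 CPM. Wwtr1 stood at 137, 122, 112 and 114 CPM, and Yap1 at 42.3, 40.5, 47.1 and 49.2 CPM.

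Between the highest and the lowest Amotl2 group the ratio was 3.12 (2.74 to 3.56) for Vgll3, 1.93 (1.72 to 2.16) for Tead1, 1.52 (1.29 to 1.79) for Vgll4, 1.503 (1.18 to 1.90) for Tead3, 1.16 (0.95 to 1.41) for Yap1, 1.08 (0.81 to 1.42) for Tead2 and 0.83 (0.73 to 0.94) for Wwtr1. By the 1.5-fold rule 4 of 7 were higher and 0 lower, against 5.56% and 5.69% of 10150 genes. Tead3 and Vgll4 passed the fold by little and their intervals reach under it; when cells were thinned to 3000 UMIs before grouping, Vgll4 was at 1.12 and Yap1 at 1.55, and over 13 alternatives Tead3 ran from 1.19 to 1.63. Of all genes, 0.27% had a ratio at least as high as Vgll3.

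Grouping by Vegfc gave 1901, 636, 269 and 161 cells. Vgll3 stood at 44.7, 83.1, 100 and 128 CPM, Vgll4 at 46.8, 66.0, 80.9 and 92.0 CPM and Tead1 at 86.7, 128, 144 and 139 CPM. Wwtr1 stood at 139, 123, 102 and 89.6 CPM, lower in each group than in the one before. The ratios of highest over lowest group were 2.86 (2.48 to 3.28) for Vgll3, 1.97 (1.67 to 2.30) for Vgll4, 1.60 (1.41 to 1.81) for Tead1 and 0.64 (0.55 to 0.75) for Wwtr1, whereas the intervals of Yap1, Tead2 and Tead3 held 1. Tead3, at 1.06 (0.78 to 1.41), moved to 0.618 when cells were thinned to 3000 UMIs before grouping and to 1.64 with levels from thinned counts, so neither direction is given for it. By the 1.5-fold rule 3 of 7 were higher and 1 lower, against 4.89% and 9.72% of 10257 genes. Fos went from 1194 to 785 CPM over these groups, and the groupings by Amotl2 and Vegfc share their cells with each other and with the cluster contrasts.

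**Figure D3:**
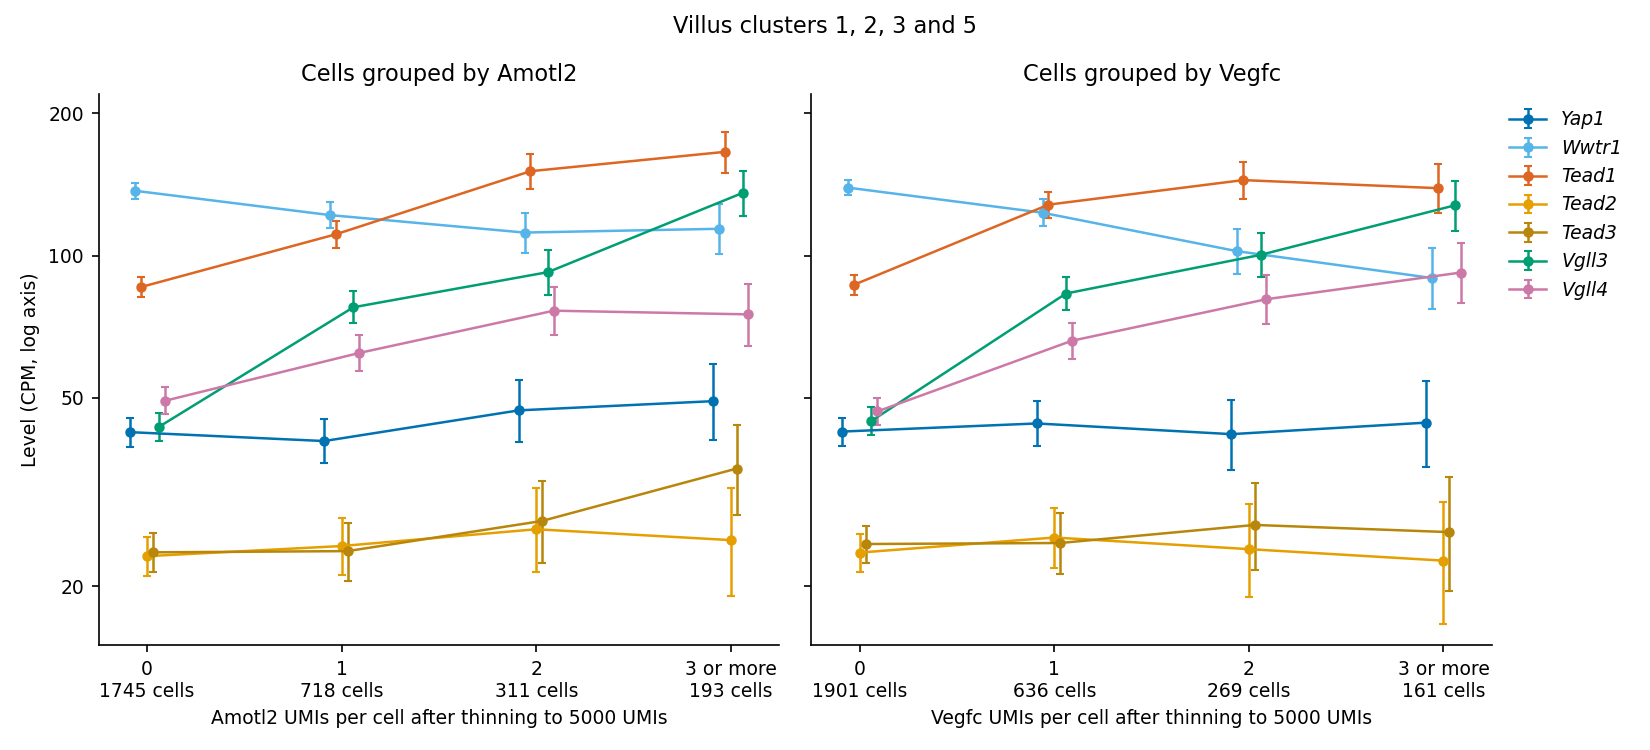
Level in CPM (log y axis) of 7 genes in cells of villus clusters 1, 2, 3 and 5 grouped by thinned Amotl2 UMIs (left) or Vegfc UMIs (right); points are pooled UMIs of the cells of a group and bars exact 95% counting intervals. Vgll3 goes from 43.4 to 136 CPM over the Amotl2 groups and Wwtr1 from 139 to 89.6 CPM over the Vegfc groups.

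The groupings were repeated within single clusters. Within cluster 1, 158 cells with 3 or more thinned Amotl2 UMIs against 358 with 0 gave 1.48 (1.26 to 1.73) for Vgll3, 1.24 (1.08 to 1.43) for Tead1, 1.23 (0.998 to 1.504) for Vgll4, 1.44 (1.05 to 1.97) for Tead3, 1.35 (1.04 to 1.75) for Yap1 and 1.04 (0.87 to 1.23) for Wwtr1. For Vegfc within cluster 1, Vgll3 was at 1.48 (1.24 to 1.75) and Vgll4 at 1.46 (1.16 to 1.82), while the intervals of Tead1, 1.09 (0.92 to 1.29), and Wwtr1, 0.86 (0.69 to 1.05), held 1. Within cluster 5, Vgll3 was at 1.43 (1.04 to 1.95) for Vegfc and Tead1 at 0.95 (0.73 to 1.23). Clusters with few Amotl2-rich cells were grouped up to 2 UMIs. In cluster 2, Vgll3 stood at 21.7 (18.4 to 25.4), 35.5 (26.7 to 46.3) and 52.5 CPM (31.1 to 82.9) in 726, 144 and 33 cells with 0, 1 and 2 thinned Amotl2 UMIs, and Tead1 at 63.9, 79.6 and 78.7 CPM with overlapping intervals. In cluster 3 it stood at 24.4 (20.5 to 29.0), 30.9 (23.0 to 40.7) and 50.2 CPM (29.2 to 80.3) in 520, 139 and 27 cells, and Tead1 at 59.5 (53.2 to 66.4), 67.9 (55.9 to 81.7) and 94.4 CPM (64.6 to 133). In cluster 5 neither was ordered by Amotl2: Vgll3 stood at 70.4, 80.7 and 74.1 CPM and Tead1 at 131.5, 130.5 and 136.6 CPM in 141, 104 and 47 cells, with overlapping intervals. Cells with 1 Vegfc UMI against 0 had Vgll3 at 39.1 against 22.5 CPM in cluster 2 and 49.6 against 23.5 CPM in cluster 3, with intervals apart. For Tead1 they overlapped, at 60.5 against 67.6 CPM and 67.2 against 60.9 CPM, and so did those of Wwtr1, at 164.7 against 153.8 CPM and 159.3 against 158.1 CPM.

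Outside the villus the grouping by Amotl2 could be made in FB4-like cells, where 62 cells had 3 or more thinned UMIs and 393 had 0. Vgll3 stood at 31.0, 84.2, 117 and 196 CPM over the 4 groups and Tead1 at 63.4, 87.3, 129 and 179 CPM. The end groups gave ratios of 6.32 (5.05 to 7.91) and 2.83 (2.32 to 3.43), Vgll4 was at 1.49 (1.02 to 2.14), and 2 of 7 members were higher and 0 lower by 1.5-fold, against 7.86% and 6.75% of 6234 genes. By Vegfc, 487, 141 and 37 FB4-like cells with 0, 1 and 2 UMIs had Vgll3 at 58.2 (52.3 to 64.6), 95.6 (81.9 to 110.9) and 82.1 CPM (59.4 to 110.5), not ordered past the first step, and Tead1 at 79.5, 95.6 and 134 CPM. In the FB5-like cluster 109, 53 and 20 cells had 0, 1 and 2 thinned Amotl2 UMIs, and Vgll3 stood there at 39.7, 100.3 and 111 CPM. Tead1 stood at 139.7 (120.5 to 161), 196 (163 to 233) and 157 CPM (113 to 214), highest in the middle group, while Fos was 132, 279 and 422 CPM over the same groups, and its part was not tested. By Vegfc, 23 FB5-like cells with 1 UMI against 168 with 0 had Vgll3 at 91.6 against 64.3 CPM and Tead1 at 221 against 152 CPM, with overlapping intervals.

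Cells of the villus clusters were then grouped by Amotl2 and Vegfc at once. Among 1300 and 445 cells with no thinned Amotl2 UMI, those with Vegfc UMIs had 2.46 times (2.14 to 2.84) the Vgll3, 1.54 times (1.38 to 1.70) the Tead1, 1.57 times (1.37 to 1.80) the Vgll4 and 0.82 times (0.74 to 0.89) the Wwtr1 of those without. Among cells with no Vegfc UMI, 67 with 3 or more Amotl2 UMIs had 4.33 times (3.47 to 5.37) the Vgll3 and 2.25 times (1.87 to 2.70) the Tead1 of the 1300 with 0, and 1.13 times (0.80 to 1.57) the Vgll4. Among cells with Vegfc UMIs, 126 with 3 or more Amotl2 UMIs had 1.80 times (1.52 to 2.13) the Vgll3, 1.43 times (1.23 to 1.66) the Tead1 and 1.33 times (1.08 to 1.62) the Vgll4 of the 445 with 0. Among cells with 1 or 2 Amotl2 UMIs, 495 with Vegfc UMIs had 1.56 times (1.37 to 1.78) the Vgll3, 1.39 times (1.25 to 1.54) the Tead1, 1.36 times (1.18 to 1.56) the Vgll4 and 0.84 times (0.75 to 0.93) the Wwtr1 of 534 without. Among the 193 cells with 3 or more Amotl2 UMIs, Vegfc went with Vgll4, at 1.84 (1.28 to 2.69), and the intervals of Vgll3, 1.02 (0.81 to 1.30), and Tead1, 0.98 (0.79 to 1.21), held 1. A cell with 0 UMIs of a gene can still express it, so these groups are not free of either transcript. The groups also pool clusters 1, 2, 3 and 5. Cells with no thinned Amotl2 UMI still had Amotl2 at 117, 16.9, 28.1 and 85.1 CPM in these clusters. Vegfc there was 191, 34.3, 35.5 and 243 CPM, and the part of cluster make-up in the ratios was not tested.

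**Figure D4:**
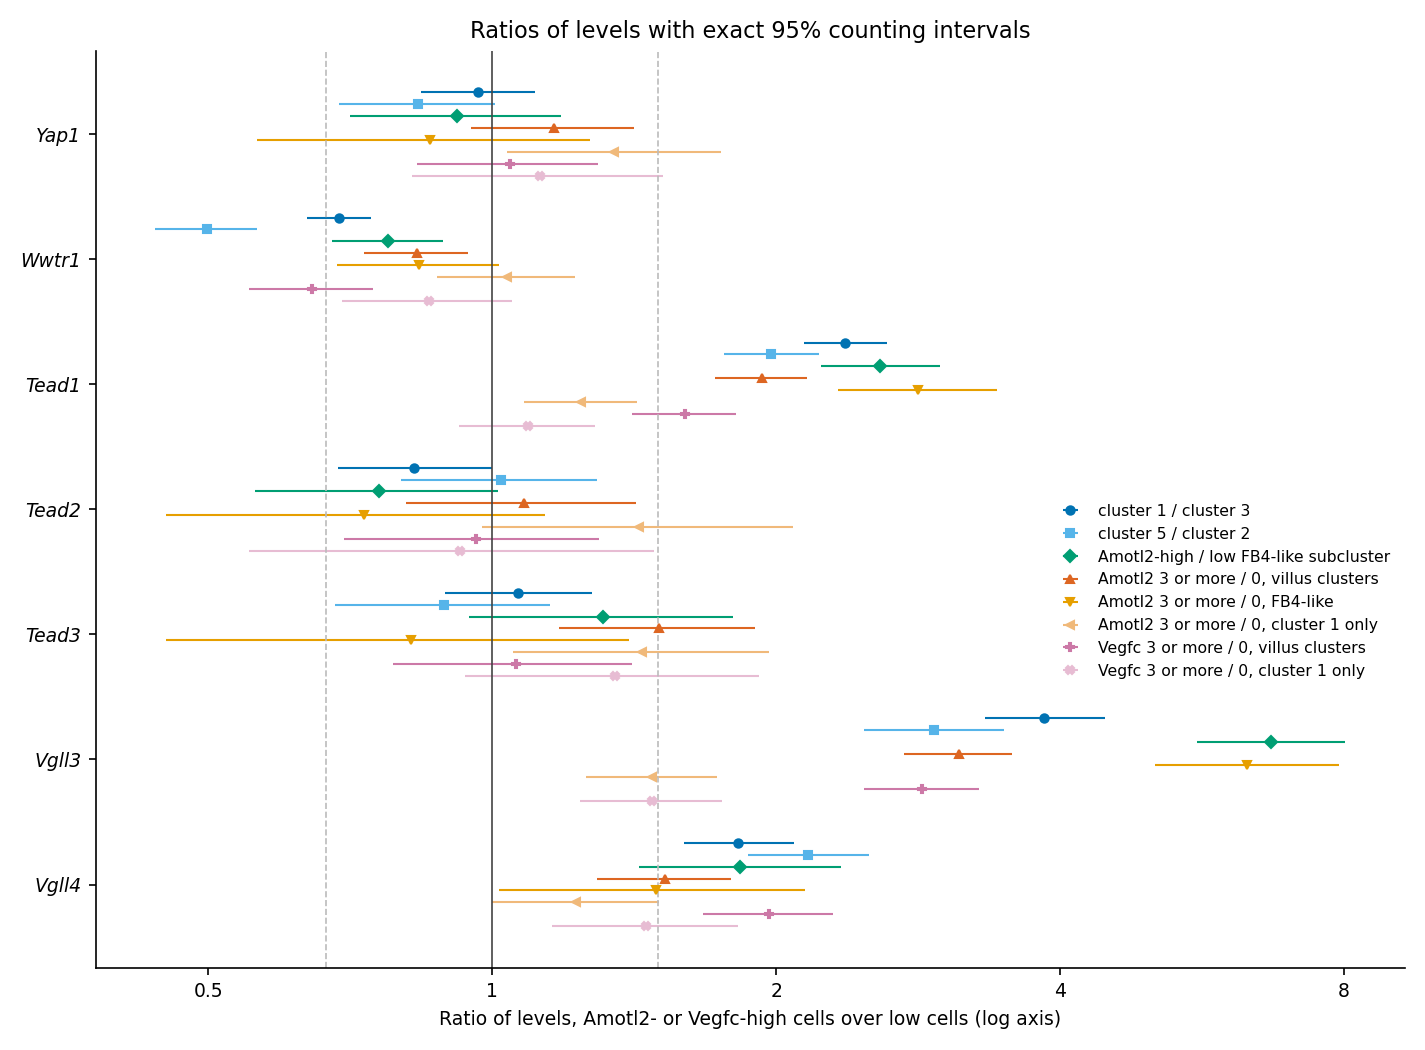
Ratio of levels (log x axis) of 7 genes (y axis) between Amotl2-high or Vegfc-high cells and the matching low cells in 8 comparisons, with exact 95% counting intervals; the solid line marks 1 and dashed lines mark 1.5-fold in either direction. Vgll3 lies right of 1 throughout, from 1.48 within cluster 1 to 6.69 between the FB4-like subclusters, and Yap1 runs from 0.83 to 1.35.

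Other genes of the pathway were counted from lists. Amotl2 is on both lists that follow and was left out of their counts, since it chose the clusters. Of 16 tested genes upstream of YAP/TAZ, 2 were higher in cluster 1 over cluster 3 (Frmd6 and Lats2) and 1 lower (Lats1), beside 5.35% and 6.84% of all genes, with a median ratio of 1.02 beside 0.99. Frmd6, a FERM-domain adaptor that acts above LATS, was 298 against 125 CPM, a ratio of 2.38 (2.21 to 2.56), and 208 against 105 CPM in clusters 5 and 2. Lats2, itself a YAP/TAZ target, was 73.6 against 42.2 CPM, whereas Lats1 was 11.4 against 17.7 CPM. In cluster 5 over cluster 2, 2 of 16 were higher and 3 lower, beside 6.05% and 14.1% of all genes.

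Of 17 tested YAP/TAZ targets, 7 were higher and 0 lower in cluster 1 over cluster 3, with a median ratio of 1.28, beside the same 5.35% and 6.84%. The largest ratios were those of Ctgf at 4.45 (3.73 to 5.33), Ajuba at 3.57 (2.41 to 5.45) and Crim1 at 3.42 (3.03 to 3.88). In cluster 5 over cluster 2, 5 were higher and 4 lower, with a median of 0.98, beside 6.05% and 14.1% of all genes and a median of 0.96. The immediate early genes, which include partners of TEAD at AP-1 sites, were lower in 7 of 7 and 6 of 6 cases. With villus cells grouped by Amotl2, 0 of 7 were lower and 1 higher (Atf3), beside 5.69% and 5.56% of all genes. Their median ratio there was 1.18. With the cells grouped by Vegfc, 5 of 7 were lower and 0 higher, beside 9.72% and 4.89% of all genes. Of other TEAD-binding cofactors 1 was tested, Fam181b, which was at 4.87 against 10.1 CPM in clusters 1 and 3, a ratio of 0.48 (0.34 to 0.68).

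Over 13 groups of cells, which were the clusters split by the marks M and F where at least 50 cells remained, the level of Vgll3 followed that of Amotl2 with a Pearson r of 0.96, Tead1 with 0.81, Vgll4 with 0.56, Wwtr1 with -0.60 and Yap1 with -0.50. Vgll3 and Tead1 had r = 0.87 with each other, Tead1 and Vgll4 0.88, and Wwtr1 had -0.86 with Vegfc. Clusters 8 and 9 had too few cells for these groups and did not keep to this order: their Amotl2 levels of 209 CPM (173 to 250) and 206 CPM (171 to 247) were the next highest after cluster 1, with Vgll3 at 58.7 and 44.7 CPM, below the 77.8 CPM of cluster 5 where Amotl2 was 164 CPM. The correlations are descriptions on log2(CPM + 10), the groups come from 1 library and split 7 clusters, and no p is given. Among 5773 genes with at least 1000 UMIs, the 3 most like Vgll3 were Htra2 (a mitochondrial protease gene), Amotl2 and Ctps (CTP synthase). Those most like Tead1 were Sept7 (a septin), Smim4 and Basp1, those most like Vgll4 were Rab31, Dbi and Wtip (an Ajuba-family LIM protein), and those most like Wwtr1 were Flot2, Enpp1 and Por. For Yap1 they were Birc6, Smarca5 and Cdkn1b, for Tead2 Selenop, L3hypdh and Lepr, and for Tead3 Pja2, Zbtb38 and Hif1a.

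**Figure D5:**
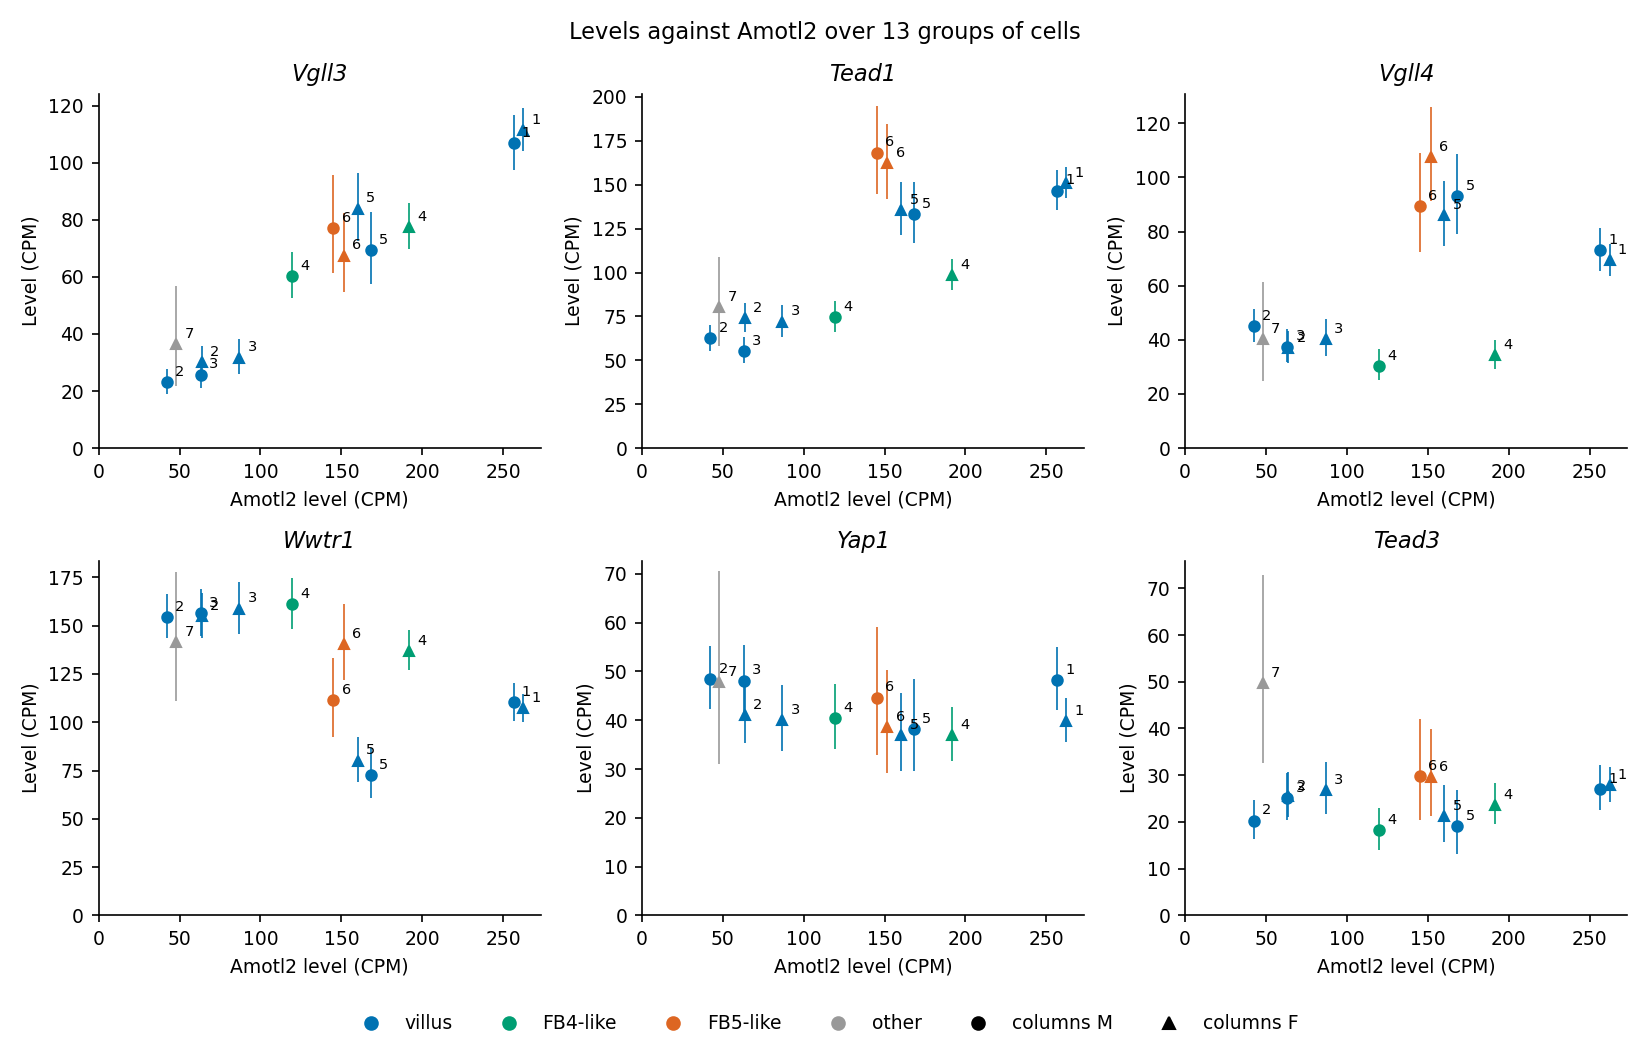
Level in CPM of 6 genes (y axes) against Amotl2 in CPM (x axes) over 13 groups of cells, each a cluster (number) split by the column marks M (circles) and F (triangles), coloured by kind of cell; bars are exact 95% counting intervals. Vgll3 rises with Amotl2 over the 13 groups plotted (r = 0.96), among them the F columns of the SMC-like cluster. Clusters 8 and 9 are not plotted and had Vgll3 at 58.7 and 44.7 CPM for Amotl2 at 209 and 206 CPM. Tead1 and Vgll4 place the FB4-like groups low for their Amotl2, and Wwtr1 is lowest in cluster 5.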

How the data were processed

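Single-cell RNA-seq libraries of sorted PDGFRb+ stromal cells were made with a 3-prime droplet kit. The LATS1/2 KO 1w library was used, and the 2 WT libraries and the KO 2w library were not analysed here. Per the submitters' processing notes, reads were processed with Cell Ranger 3.0.2 and Seurat 3.0.1 on mm10; the methods state that cells with 1000 to 6000 genes and up to 7% mitochondrial UMIs were kept and that immune and endothelial cells were removed. The authors deposited natural log values, ln(1 + UMIs of a gene / UMIs of the cell × 10000). Each cell's lowest nonzero value, back on the linear scale, is worth 1 UMI, and dividing by it gave whole UMIs for 100% of 13789523 nonzero entries (tolerance 0.001). No column was left unmatched to the library.

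Cells were clustered with Seurat 5.3.0 in R 4.3.3 at resolution 0.5. The 2000 variable genes left out the members, Vegfc, Amotl2 and the listed YAP/TAZ targets. The 30 principal components were taken after regression on UMI count and mitochondrial percent. A cluster took the name of the list with the largest share of markers within 2-fold of the highest cluster and in at least 10% of its cells, given 3 such markers and no other list with more markers among its 10 leading genes; levels by cluster were known when this rule was written. Counts, exact Poisson intervals for CPM, exact conditional intervals for ratios and Clopper-Pearson intervals for shares (95%) were computed in Python 3.11.15 with scipy 1.17.1 and checked on simulated counts. Groups by Amotl2 or Vegfc used cells thinned to 5000 UMIs, which left out 94 cells; a group needed 20 cells. Positions are from GENCODE M21 and upstream windows from RefSeq, matched by symbol.

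Members and lists were chosen with earlier results of these data known. All 8 members, Vegfc, Amotl2, Lats1 and Lats2 were named whatever their values, up to 4 genes of a list by largest ratio, and the 3 most alike genes for members with at least 1000 UMIs. Possible doublets (116 cells with Xist and a Y-linked UMI) were kept and left out in an alternative. Other alternatives were the clustering resolution, regression, variable genes, depth, mitochondrial share, the M and F columns, the denominator, thinning, the fold and the minimum of UMIs.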

Additional observations from a re-analysis of the deposited data

How the results depend on the processing

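Recomputed under the alternatives, 318 values of the members' ratios and of the shares of genes past the fold stayed within the counting interval of the reported ratio (for shares of genes, within 1.5 times), 54 lay outside it and 1 ratio past 1.5-fold changed direction. Ratios that had not passed 1.5-fold crossed 1 as well, among them those of Wwtr1 by Amotl2, Tead2 and Tead3 by Vegfc and Tead3 in the contrast with little Fos printed here. In the grouping by Vegfc within cluster 5, Tead1 was at 0.951 against 1.60 over all villus clusters, Wwtr1 at 0.95, Tead2 at 1.31, Tead3 at 0.610, Vgll3 at 1.43 and Vgll4 at 1.26. Within cluster 1 the Vegfc grouping gave Wwtr1 0.856, Tead1 1.09, Vgll3 1.48 and Vgll4 1.46, and the Amotl2 grouping gave Wwtr1 1.04, Tead1 1.24, Tead2 1.43, Vgll3 1.48 and Vgll4 1.23. Resolution 1.0 moved cluster 1 over cluster 3 to 0.635 for Wwtr1, 2.14 for Tead1 and 3.15 for Vgll3, and the contrast with little Fos to 0.788 for Wwtr1, 2.39 for Tead1, 1.38 for Tead3, 5.94 for Vgll3 and 1.41 for Vgll4. In that contrast resolution 0.2 gave Wwtr1 0.638 and Vgll3 3.75, and clusters with nothing regressed out gave Wwtr1 0.608, Tead1 2.36, Vgll3 5.33 and Vgll4 1.86. The M columns gave 2.65 for Tead1 in cluster 1 over cluster 3, 1.87 for Tead1 and 3.34 for Vgll3 by Vegfc and 4.22 for Vgll3 by Amotl2, and the F columns 2.10 for Tead1 in cluster 1 over cluster 3 and 2.47 for Vgll3 by Amotl2. Thinning to 3000 UMIs before grouping gave Yap1 1.55 and Vgll4 1.12 by Amotl2, and Tead1 1.89 and Tead3 0.618 by Vegfc; levels from thinned counts gave Tead3 1.64 by Vegfc. With 2 or more UMIs as the highest group Vgll3 was at 2.52 by Amotl2 and 2.48 by Vegfc. A limit of 5% mitochondrial UMIs put Tead1 at 1.68 by Amotl2, and cells of 8000 to 14000 UMIs put Vgll3 at 4.49 in cluster 1 over cluster 3. Chosen after seeing the data, subtracting the free RNA bound put this Vgll3 ratio at 4.55, and leaving out cluster 5 put Vgll3 by Vegfc at 3.32. With a fold of 2 the shares of genes higher and lower were 2.34% and 2.05% in cluster 1 over cluster 3, 2.27% and 4.97% in cluster 5 over cluster 2, 1.39% and 1.8% by Amotl2 and 1.51% and 3.27% by Vegfc; with at least 300 UMIs, 3.59% were lower by Amotl2. The stricter fold calls fewer genes by construction, and for the other moves the cause was not tested.

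Of the levels by cluster, the shares and the other values, 820 moved by less and 152 by more than the counting interval. No paired test was made, because the M and F columns split 1 library and do not stand for replicates. With 1 library, the spread between mice is unknown, and every interval is too narrow for a statement beyond these cells. Depth limits Tead4 (16 UMIs) and the small clusters 7, 8 and 9, where an interval can span more than a factor of 2. For Tead2 in cluster 8 it ran from 9.49 to 34.0 CPM.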

Other observations

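Among 5773 genes with at least 1000 UMIs, the gene whose level over the 13 groups of cells was most like that of Amotl2 was Vgll3 (r = 0.956), a pair singled out after the values were seen. Htra2 (r = 0.954) and Marcks (r = 0.945) were nearly as alike, so Vgll3 does not stand apart. The groups come from 1 library and split 7 clusters. Clusters 8 and 9, too small to be among them, had Amotl2 at 209 and 206 CPM but Vgll3 at 58.7 and 44.7 CPM, so the likeness does not extend to all kinds of cell.

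The M and F columns differed in their levels over the whole library. Tead1 was at 97.5 CPM in M and 116 CPM in F cells, Vgll3 at 56.7 and 71.7 CPM, and Yap1 at 46.1 and 39.5 CPM. Cluster 1, which had the highest Vgll3 level, held 422 M and 658 F cells, and clusters 2 and 3 held 513 and 417 M against 411 and 288 F cells. The marks follow Xist and do not stand for replicates, so no test was made.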
